A study of Mus musculus with 3 samples.

Results

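The T cell receptor (TCR) constant genes Trac, Trbc1, Trbc2, Trdc and Tcrg-C2, the CD3 subunits Cd3e and Cd3g, the co-receptor gene Cd8a and the surface receptor Cd7 were followed in single CD45+ cells of the small intestinal muscularis. These 9 genes were chosen by name among the 14148 genes measured, and all 9 were detected. Cells came from 12-week-old WT C57BL/6J mice that were either naïve or taken 24 h or 72 h after intestinal manipulation. This is a mechanical handling of the gut that inflames its muscle layer. The naïve library is labelled as day 0 after manipulation, and the paper calls its mice naïve. Each of the 3 libraries was pooled from several mice and every time point was 1 library. Effects of time and of the library therefore cannot be told apart, and levels at different times were compared without a test. All mice were WT and no group carried a transgene. Per the study's methods, manipulation followed a midline laparotomy under ketamine and xylazine anaesthesia. Effects of the laparotomy and the anaesthesia cannot be told apart from those of the handling itself.

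A TCR is built from an alpha and a beta chain or from a gamma and a delta chain, and each chain ends in a constant region encoded by the genes above. Either receptor reaches the cell surface together with the CD3 subunits, which carry the signal into the cell. CD8 is a dimer of 2 CD8 alpha chains or of an alpha with a beta chain, and gut intraepithelial T cells are known for the form made of alpha chains alone. CD7 is an immunoglobulin-family receptor of T cells, NK cells and their progenitors. The delta locus lies inside the alpha locus, between its variable and joining segments, and is cut out of a chromosome when alpha segments are joined there.

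Several of these genes have close copies, which decides how far their counts can be told apart. In the GRCm38 genome with GENCODE annotation, Trbc1 (chromosome 6, 41538218 to 41539881) and Trbc2 (41546730 to 41548352) lie 6848 bases apart on the plus strand, with 4 exons each. Their coding parts were identical at 495 of 518 bases (95.6%), and the 23 differences were gathered near the end. The last 120 bases of both coding parts are shown here, 5′ to 3′ and spliced over 2 exons, with the 19 bases that differ in capitals, since most of the coding differences lie in this stretch.
Trbc1, chr6:41539234-41539662, plus strand: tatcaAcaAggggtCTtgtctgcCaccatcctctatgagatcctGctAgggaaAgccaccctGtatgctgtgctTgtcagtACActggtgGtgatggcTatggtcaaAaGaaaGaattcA
Trbc2, chr6:41547777-41548178, plus strand: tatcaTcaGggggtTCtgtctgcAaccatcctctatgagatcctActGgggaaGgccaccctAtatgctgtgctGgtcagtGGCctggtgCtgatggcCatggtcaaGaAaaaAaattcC
Of the 688 windows of 50 bases along the Trbc1 transcript, 283 (41.1%) also occurred in Trbc2, but 0 of the 170 windows after the coding part did.

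The gamma constant genes lie on chromosome 13. Tcrg-C2 (19304649 to 19307551, minus strand, 3 exons) and Tcrg-C1 (19214103 to 19217024, plus strand) were identical at 94.6% of aligned coding columns, whereas Tcrg-C4 (19344558 to 19352756, plus strand) matched Tcrg-C2 at 71.0%. The first 120 coding bases of the 3 genes are given next, with the 15 positions at which they are not all alike in capitals, to show that Tcrg-C4 is the one that stands apart.
Tcrg-C1, chr13:19214103-19214222, plus strand: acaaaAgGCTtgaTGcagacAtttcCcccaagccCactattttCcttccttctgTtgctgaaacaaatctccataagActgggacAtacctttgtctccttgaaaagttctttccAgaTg
Tcrg-C2, chr13:19307432-19307551, minus strand: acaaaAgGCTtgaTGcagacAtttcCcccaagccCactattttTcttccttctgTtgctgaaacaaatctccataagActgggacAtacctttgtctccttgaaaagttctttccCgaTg
Tcrg-C4, chr13:19344558-19344677, plus strand: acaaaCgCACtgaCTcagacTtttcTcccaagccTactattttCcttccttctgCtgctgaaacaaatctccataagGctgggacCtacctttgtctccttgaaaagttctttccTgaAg
Here 91 of the 360 windows of 50 bases after the coding part of Tcrg-C1 also occurred in Tcrg-C2, so the counts of these 2 genes are uncertain to that extent.

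Trac (chromosome 14, 54220521 to 54224206, plus strand, 4 exons) and Trdc (54142851 to 54148868, plus strand, 4 exons) lie 71652 bases apart. Their coding parts aligned at 50.5% identity with no shared run longer than 12 bases, and no window of 50 bases occurred in both transcripts. The first 120 coding bases of each are shown because the co-detection of these 2 genes in single cells is described below in detail.
Trac, chr14:54220521-54220640, plus strand: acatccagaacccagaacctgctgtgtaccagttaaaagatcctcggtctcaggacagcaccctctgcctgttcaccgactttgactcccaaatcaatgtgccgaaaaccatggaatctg
Trdc, chr14:54142851-54142970, plus strand: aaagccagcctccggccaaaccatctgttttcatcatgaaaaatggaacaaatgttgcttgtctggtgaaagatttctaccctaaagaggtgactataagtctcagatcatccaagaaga
Cd8a (chromosome 6, 71373427 to 71379173), Cd7 (chromosome 11, 121036747 to 121039418), Cd3e (chromosome 9, 44998740 to 45009627) and Cd3g (chromosome 9, 44969572 to 44980431) are protein-coding genes, and Cd3e and Cd3g shared no window of 50 bases. Cd3e overlaps 1 annotated gene on its own strand, Gm48720, so its counts are uncertain where the 2 overlap. Trdc, Cd7 and Cd3e overlap annotated genes on the opposite strand.

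The libraries held 652, 2211 and 1239 cells with between 1865221 and 10542346 UMIs, the counted RNA molecules, and a UMI of Ptprc, which encodes CD45, was found in 58.4% to 64.1% of the cells. T, NK and innate lymphoid cells (ILCs) formed 2 of 16 clusters and numbered 393, with median depths of 2336 (naïve), 2400 (24 h) and 2704 (72 h) UMIs per cell. Cluster 10, led by Gzma, Gzmb and Ccl5, held 128 of these cells from naïve mice, 6 from 24 h and 28 from 72 h, and cluster 9, led by Thy1, held 59, 65 and 107. Markers of other cells moved with time inside this class: 10 of 11 monocyte/Mφ markers had UMIs, Mertk being at 0, and their summed level was 432 CPM (UMIs per 1e6 UMIs of the group) in naïve mice, 2524 CPM at 24 h and 2875 CPM at 72 h. Of 5 neutrophil markers, Cxcr2 was at 0 in each library and the summed level was 14.9, 361 and 452 CPM. Of 6 measured epithelial markers, Krt8, Vil1 and Cldn7 were at 0 in each library and the summed level was 51.0, 10.6 and 21.4 CPM. The part of these markers in the results was not tested. Each pair of libraries shared 1 cell barcode.

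Clustering these 393 cells again, without the 9 genes or any TCR segment among the genes that drive it, gave 4 subclusters. One of 162 cells was led by Gzma, Cd7, Dapk2, Cela1, Cd8a, Gzmb, Itgae and Ccl5. It held only 2 of the T cell markers at the required level (Cd3d and Trat1), so it carries no cell type name and is called the Gzma-led subcluster. That level was set against the other T/NK/ILC cells, so markers shared with another subcluster could fall short. Cd3g was found in 160 of the 162 cells. A T cell-like subcluster of 131 cells was led by Tnfrsf4, Cd28 and Cd4, an NK cell-like one of 79 cells by Ncr1 and Klr genes, and an ILC-like one of 21 cells expressed Gata3, Il1rl1, Areg, Il5, Il13 and Kit. The names depend on the clustering resolution. At 1.2, 69 cells (61 naïve) with Cd8b1 among their leading genes formed another T cell-like subcluster. At 0.5, no subcluster was named T cell-like and 178 cells formed an ILC-like one. The Gzma-led subcluster made up 69.5% (95% interval 62.4 to 76.0) of the T/NK/ILC cells in naïve mice, 7.04% (2.33 to 15.7) at 24 h and 20% (13.6 to 27.7) at 72 h. The NK cell-like share was 6.95%, 42.3% and 26.7%, and the T cell-like share 20.3%, 46.5% and 44.4%. All intervals here are exact and cover counting error only, not the spread between mice or libraries. For a gene found in 0 cells, the share that this allows is given as 3 cells of the total, and it limits cells with a UMI. The intervals treat UMIs as independent, although UMIs of one gene gather in a few cells.

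Across the T/NK/ILC cells, the delta and gamma chains, Cd8a, Cd7 and both CD3 subunits were at their highest in the naïve library, whereas the ratios of Trac and Trbc1 were between 0.914 and 1.16. At 24 h, 6 of the 9 genes were at least 2-fold below the naïve library, where 8.63% of 4243 genes were, and 0 were 2-fold above it (6.62% of genes). At 72 h the same count against the naïve library was 6 of 9 (5.47% of 5189 genes), with 0 above (6.01%). Both comparisons share the naïve library. The median ratio of the 9 genes was 0.251 at 24 h and 0.393 at 72 h, with medians over all genes of 1.03 and 0.997. From 24 h to 72 h, 2 of 9 were at least 2-fold higher, Trdc and Cd7 (5.24% of 4026 genes), and 0 lower (4.57%).

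Trac, the single alpha constant gene, was measured at 545 CPM (95% interval 480 to 615) in naïve T/NK/ILC cells, 589 (484 to 709) at 24 h and 497 (432 to 570) at 72 h. These 3 intervals overlap. Trbc1 stood at 778, 907 and 821 CPM, and the ratio of 24 h over naïve, 1.16 (0.966 to 1.40), turned to 0.916 when each cell was thinned to 1500 UMIs. Trbc2, the other beta constant gene, was 1765 CPM (1647 to 1890) in the naïve library, 1448 (1281 to 1630) at 24 h and 1219 (1115 to 1329) at 72 h, which was 0.690 (0.617 to 0.772) of the naïve level.

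Trdc, the delta constant gene, showed the steepest course of the 9. Its level was 1012 CPM (924 to 1108) in naïve T/NK/ILC cells, 95.5 (56.6 to 151) at 24 h and 397 (339 to 463) at 72 h, so that the ratio over naïve was 0.0943 (0.0554 to 0.151) at 24 h and 0.393 (0.327 to 0.469) at 72 h. At 24 h all 18 Trdc UMIs came from 3 of 71 cells. Tcrg-C2, a gamma constant gene, was at 742, 148 and 245 CPM, with ratios over naïve of 0.200 (0.131 to 0.294) and 0.330 (0.262 to 0.413). The 2 other gamma constant genes were lower as well: Tcrg-C1 had ratios of 0.112 and 0.458, and Tcrg-C4 of 0.288 and 0.388.

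Cd3e and Cd3g, the epsilon and gamma subunits of CD3, were 0.251 (0.192 to 0.323) and 0.307 (0.262 to 0.357) of the naïve level at 24 h. Their levels were 1417, 355 and 671 CPM for Cd3e and 3252, 997 and 1276 CPM for Cd3g. Cd8a was at 1229 CPM (1131 to 1334) in the naïve library, 265 (197 to 350) at 24 h and 348 (293 to 409) at 72 h. Cd7 was at 3376 CPM (3211 to 3546), 472 (379 to 581) and 1050 (954 to 1152), and rested on 135 of 187, 18 of 71 and 49 of 135 cells.

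**Figure D1:**
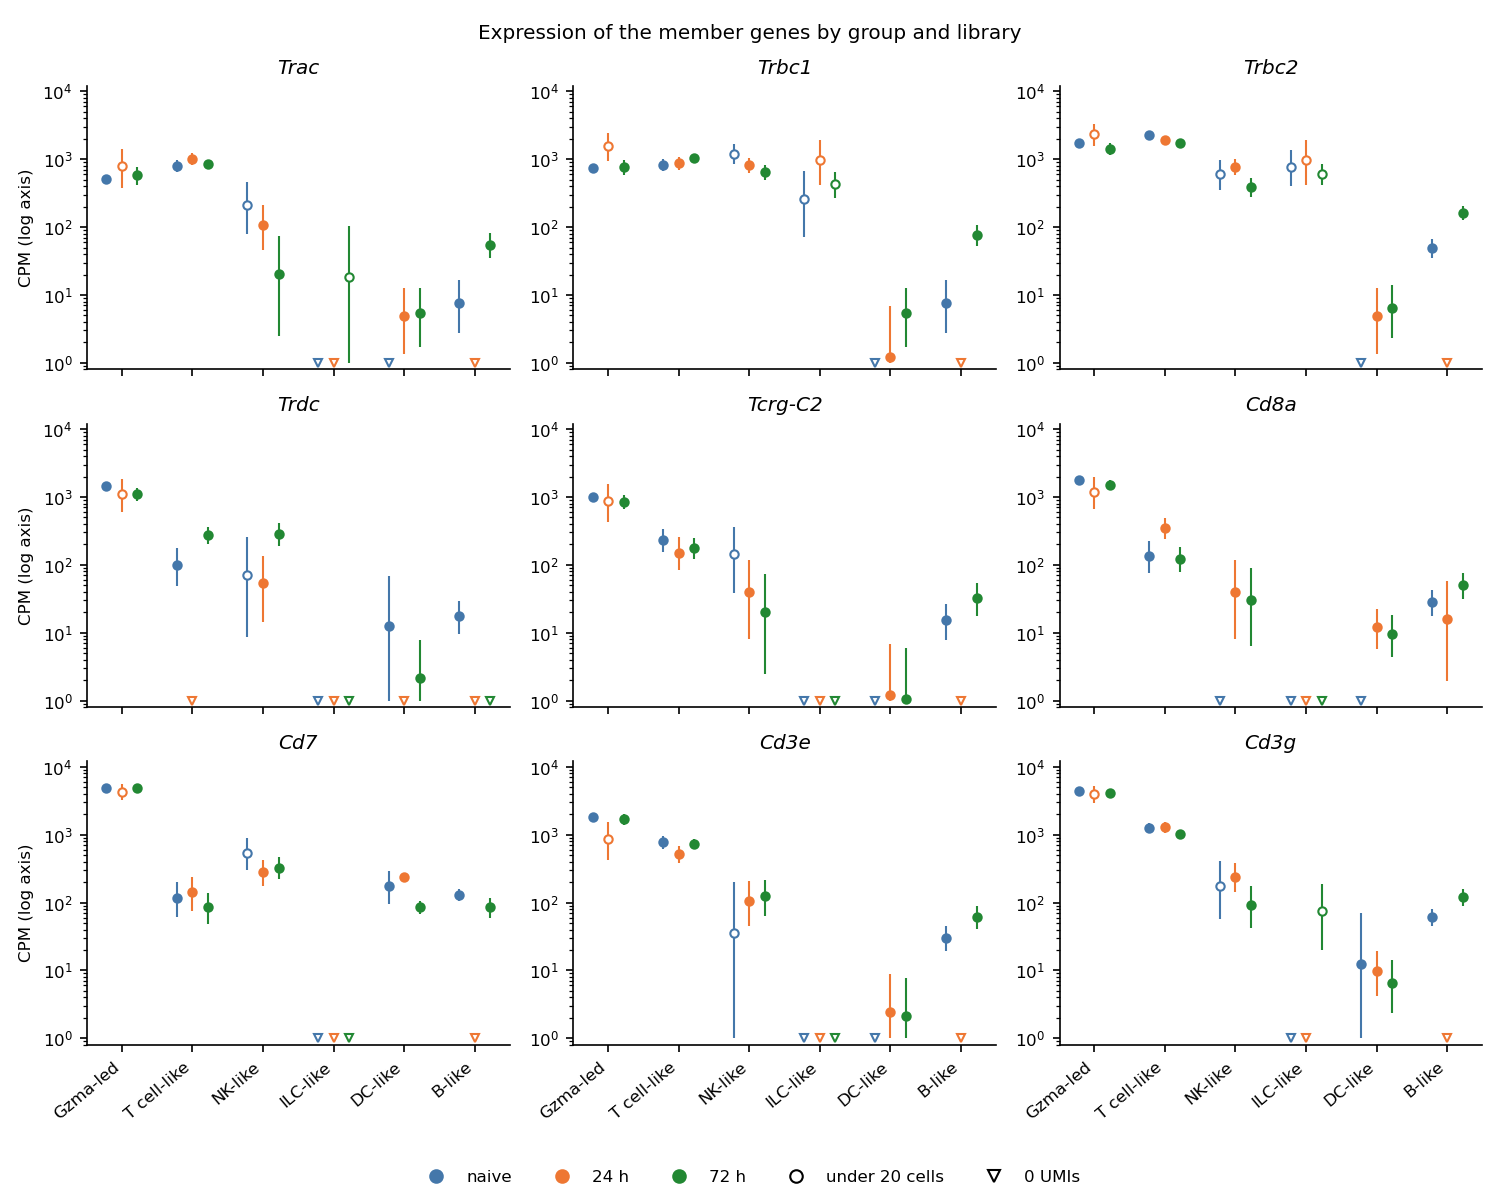
Level of each of the 9 genes in CPM by library, for the lymphocyte subclusters and the DC-like and B cell-like cells, with exact 95% Poisson intervals as bars. Trdc, Tcrg-C2, Cd8a, Cd7, Cd3e and Cd3g are higher in the Gzma-led subcluster than in the T cell-like subcluster in the naïve and 72 h libraries, and Trac, Trbc1 and Trbc2 are not.

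In the naïve library and at 72 h, the Gzma-led subcluster had the highest level of Trdc, Tcrg-C2, Cd8a, Cd7, Cd3e and Cd3g among the 4 subclusters. In the naïve library 6 of the 9 were at least 2-fold above the T cell-like subcluster (15.1% of 2962 genes), and at 72 h the count was again 6 (7.75% of 1885 genes). None of the 9 was 2-fold below it in either library (6.79% and 14.1% of genes). Cd7 was at 4950 CPM (4707 to 5202) in 130 naïve Gzma-led cells and at 116 (62.0 to 199) in 38 naïve T cell-like cells, a ratio of 42.5 (24.8 to 80.0). Cd8a was at 1788 and 134 CPM (ratio 13.3) and Trdc at 1470 and 98.5 CPM (ratio 14.9, interval 8.26 to 30.1). Tcrg-C2 was 4.35-fold, Cd3g 3.48-fold and Cd3e 2.39-fold higher. The alpha and beta genes went the other way without passing 2-fold: Trac was at 508 CPM (432 to 593) against 806 (648 to 991), a ratio of 0.630, and Trbc2 had a ratio of 0.746. The subclusters were defined in these same cells, so this comparison is a description.

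Inside the Gzma-led subcluster the naïve and 72 h libraries were compared, the 2 with at least 20 such cells. The subcluster groups cells that are alike in these same data, so closeness between its libraries is partly built in. Of the 9 genes, 0 were 2-fold higher (3.16% of 2755 genes) or lower (10.2%) in the 27 cells at 72 h than in the 130 naïve cells. A count of 0 among 9 genes is near these background shares. Cd7 was at 4950 CPM in the naïve library and 4949 (4471 to 5463) at 72 h, and Cd3g at 4391 and 4155. Trac was at 508 and 579 CPM (ratio 1.14, 0.803 to 1.59), and Cd8a at 1788 and 1511 (0.845, 0.688 to 1.03). Trdc, at 1470 CPM (1339 to 1610) and 1095 (877 to 1351), was the one of the 9 whose ratio, 0.745 (0.586 to 0.939), had an interval that left out 1. Monocyte/Mφ markers were at 352 CPM in the naïve and 2770 in the 72 h cells of this subcluster. At 24 h only 5 cells belonged to it, and Cd7 (55 UMIs) and Cd3g (51 UMIs) were found in all 5.

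In the T cell-like subcluster the order was different. Trac was at 806 CPM (648 to 991) in the naïve library, 1008 (814 to 1235) at 24 h and 847 (721 to 989) at 72 h, and was found in 25 of 38, 29 of 33 and 51 of 60 cells. Cd3g was at 1263, 1290 and 1021 CPM and Cd3e at 770, 520 and 725. Trdc was at 98.5 CPM (49.2 to 176) in 3 naïve cells, at 0 of 33 cells at 24 h, which allows a share of up to 9.09%, and at 275 (206 to 361) at 72 h. The ratio of 72 h over naïve was 2.79 (1.44 to 5.94), and the ratio of 72 h over 24 h was 8.46 with the 24 h cells set to a floor of 3 UMIs over the group. The exact interval for the counts as found, 52 against 0, starts at a ratio of 6.64. The 52 Trdc UMIs at 72 h came from 7 of 60 cells, with up to 15 in one cell. Those 7 cells also held 12 of the 13 UMIs of Cd163l1, a scavenger receptor of gamma-delta T cells, found in this subcluster at 72 h, and 20 of its 35 Tcrg-C1 UMIs.

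Of the 9 genes, 8 passed the minimum of 20 UMIs for 24 h over naïve in the T cell-like subcluster, and 1 of them, Cd8a, was 2-fold higher (6.39% of 1456 genes) and 0 lower (4.19%). Cd8a was at 134 CPM (75.2 to 222) in the naïve library, 347 (237 to 490) at 24 h and 122 (77.2 to 183) at 72 h. The 32 UMIs at 24 h came from 7 of 33 cells, and 7 of 38 naïve cells had a UMI too. For 72 h over naïve, Trdc was the only one of 9 above 2-fold (6.65% of 2089 genes) and 0 were below (4.26%). For 72 h over 24 h, Trdc was above (5.20% of 1981 genes) and Cd8a below, at a ratio of 0.351 (4.95%).

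The NK cell-like and ILC-like subclusters carried beta constant transcripts, and few of their cells held CD3 transcripts. Trbc1 was found in 59 of 79 NK cell-like cells (74.7%, 63.6 to 83.8) at 790 CPM (672 to 923), and Trbc2 in 40 (50.6%). Cd3e or Cd3g was found in 11 of the 70 NK cell-like cells with a beta chain (15.7%, 8.11 to 26.4), in comparison with 153 of 154 such Gzma-led cells (99.4%). Among the 21 ILC-like cells, Trbc2 was found in 20 (95.2%) and Trbc1 in 14 (66.7%), while Trdc, Tcrg-C2, Cd8a, Cd7 and Cd3e were at 0 of 21 cells, which allows a share of up to 14.3%. Cd3g was found in 3 of the 21 (14.3%, 3.05 to 36.3), all at 72 h. The beta chain shares in B cell-like cells, which should lack the genes, were lower: Trbc1 in 1.81%, 0% and 10.1% and Trbc2 in 2.89%, 0% and 17.7% of cells by library.

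Trac in NK cell-like cells was at 213, 106 and 20.5 CPM by library. It was found in 2 of 36 cells at 72 h (5.56%), beside 5 of 79 B cell-like cells (6.33%). Those 5 cells were deep, with a median of 6391 UMIs. After thinning to 1000 UMIs the counts were 2 of 36 NK cell-like and 1 of 78 B cell-like cells (1.28%). Whether Trac in these 2 NK cell-like cells is background was not tested. The comparison of 72 h with 24 h had 6 of the 9 genes past the minimum count, with Trdc higher (ratio 5.40, 1.89 to 21.2, where 3.92% of 1301 genes were) and Cd3g lower (0.386, 0.153 to 0.905, where 4.69% were). Of the 28 Trdc UMIs behind the first value, 17 came from a single cell.

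B cell-like and neutrophil-like cells give the level of stray RNA. Among 394 B cell-like cells 334 had no UMI of any of the 9 genes, and 9 cells with at least 4 of the genes held 79.6% of the UMIs of the 9 genes there. Among 533 neutrophil-like cells 518 had none. A UMI of all 9 genes at once was found in 27 of the 393 T/NK/ILC cells and in 1 B cell-like cell of the naïve library. These 27 were all Gzma-led cells, 22 of them in the naïve library. The median number of the 9 genes found per cell was 7 in the Gzma-led, 5 in the T cell-like, 2 in the NK cell-like and 2 in the ILC-like subcluster.

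To see which cells held transcripts of both receptor types, each T/NK/ILC cell was assigned by its UMIs of the constant genes. The alpha-beta genes were Trac, Trbc1 and Trbc2, and the gamma-delta genes were Trdc and Tcrg-C2. A chain here stands for UMIs of its constant gene, which do not show whether a receptor was made. In the naïve library 123 of 187 cells held both (65.8%, 58.5 to 72.5), 55 only alpha-beta chains (29.4%), 7 only gamma-delta chains (3.74%) and 2 neither. At 24 h, 14 of 71 cells held both (19.7%, 11.2 to 30.9) and 53 only alpha-beta chains (74.6%), and at 72 h 43 of 135 held both (31.9%, 24.1 to 40.4) and 89 only alpha-beta chains (65.9%). Cells with gamma-delta chains alone numbered 0 at 24 h, which allows a share of up to 4.23%, and 1 at 72 h. In the B cell-like cells 263 of 277, 38 of 38 and 60 of 79 held neither.

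**Figure D2:**
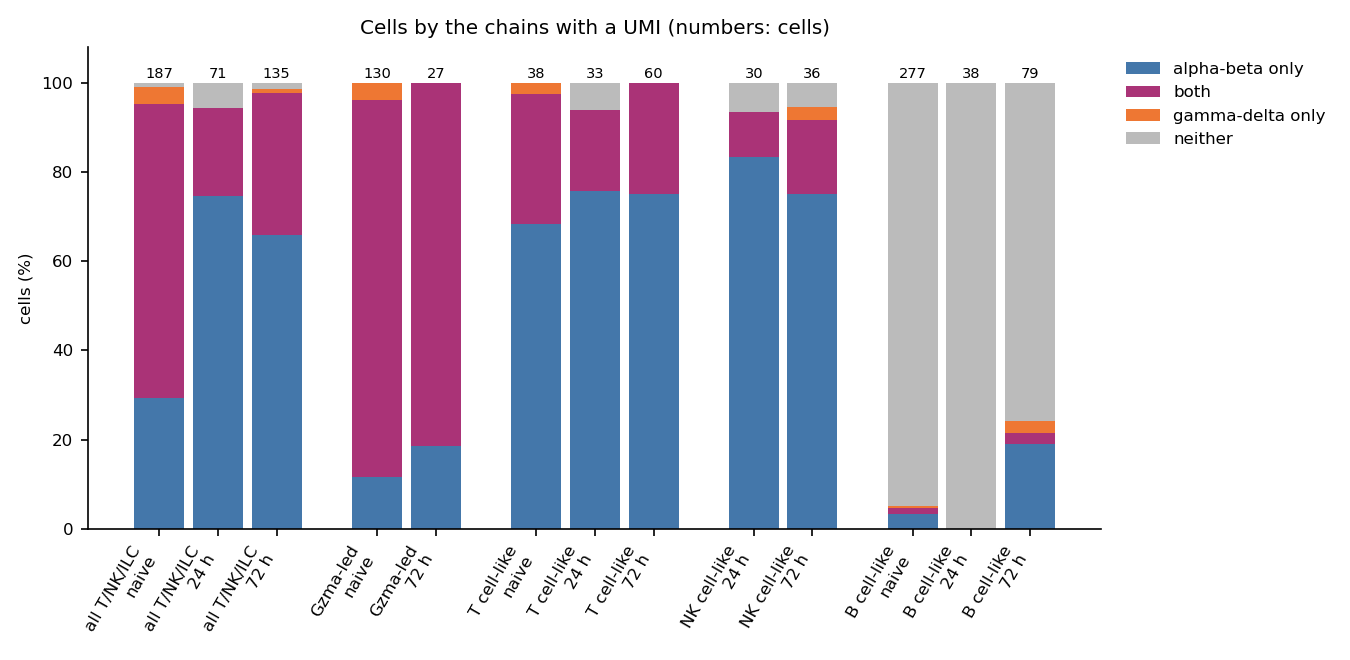
Percent of cells with UMIs of alpha-beta chains only, gamma-delta chains only, both or neither, by subcluster and library. Cells with UMIs of both types of chain make up 84.6% of the naïve Gzma-led cells.

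Of the cells with both types, the Gzma-led subcluster held 110 of 123 in the naïve library, 5 of 14 at 24 h and 22 of 43 at 72 h. Both types were found in 110 of its 130 naïve cells (84.6%, 77.2 to 90.3), in all 5 of its cells at 24 h and in 22 of its 27 cells at 72 h (81.5%, 61.9 to 93.7). In the T cell-like subcluster the counts were 11 of 38, 6 of 33 and 15 of 60, and in the NK cell-like one 11 of 79. Cells with both were deeper than cells with gamma-delta chains alone in the naïve library, with medians of 2487 and 1616 UMIs. Tcrg-C2 was found in 33 of the 39 naïve Gzma-led cells with Trac and no Trdc. Trbc transcripts were also found in cells of the NK cell-like and ILC-like subclusters. A class that counts these genes is therefore wide, and Trac and Trdc alone were compared next.

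Trac and Trdc were found together in 38 of 130 naïve Gzma-led cells (29.2%), Trac without Trdc in 39, Trdc without Trac in 36 and neither in 17. At 72 h the counts in this subcluster were 9, 7, 9 and 2. Elsewhere the pair was rare, with 0 of 38, 0 of 33 and 3 of 60 T cell-like cells, 0 of 79 NK cell-like cells and 2 of 394 B cell-like cells. Requiring 2 UMIs of each gene left 15.4% of the naïve Gzma-led cells with both, and thinning every cell to 1000 UMIs left 19.0%.

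**Figure D3:**
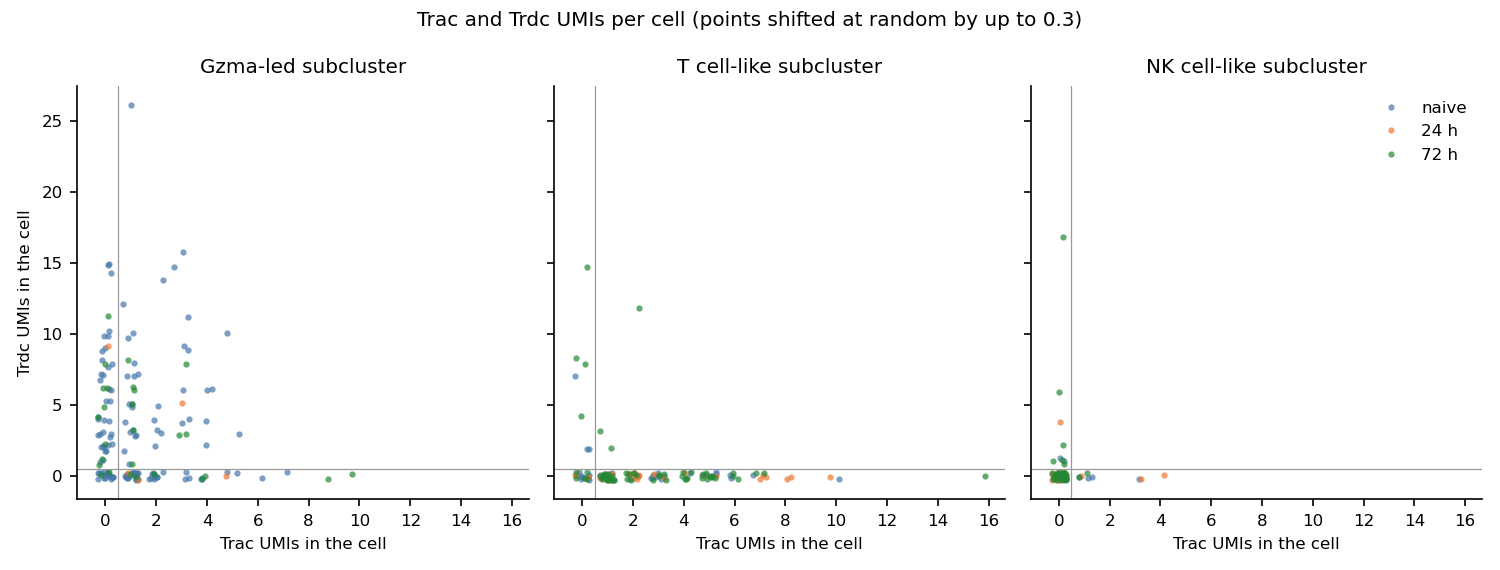
UMIs of Trac against UMIs of Trdc in each Gzma-led, T cell-like and NK cell-like cell, by library, with points shifted slightly at random to separate them. Cells with UMIs of both genes are found in the Gzma-led subcluster in every library, in the T cell-like subcluster in 3 cells at 72 h, and in 0 NK cell-like cells.

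The share of cells with Trac was lower among cells with Trdc than among cells without it in the naïve and 72 h libraries, and this difference was not tested, since cells of 1 library are not replicates. In the naïve Gzma-led cells Trac was found in 38 of 74 cells with Trdc (51.4%, 39.4 to 63.1) and in 39 of 56 without (69.6%, 55.9 to 81.2). The T/NK/ILC cells as a whole gave 48.1% and 63.0% in the naïve library and 38.7% and 55.8% at 72 h. For Tcrg-C2 the order was the opposite: Trac was found in 69 of 102 naïve Gzma-led cells with Tcrg-C2 (67.6%, 57.7 to 76.6) and in 8 of 28 without (28.6%). Trdc was found in 61 of those 102 (59.8%) and in 13 of the 28 (46.4%).

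The naïve cells with both Trac and Trdc were the deepest of the Gzma-led classes, with a median of 2711 UMIs, against 2319 with Trac alone, 2030 with Trdc alone and 1895 with neither. Their median doublet score was 0.0296 and that of the cells with Trac alone 0.0395, and Scrublet called 0 of them a doublet. Scrublet called only 16 of all 4102 cells, too few to be relied on, so these values say little about doublets. A B cell marker UMI was found in 9 of the 38 cells with both (23.7%), in 7 of 39 with Trac alone and in 8 of 36 with Trdc alone. The part of depth in the co-detection beyond the thinned value was not tested.

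The remaining genes separated these classes only in part. Tcrg-C1 was found in 17.9% of the naïve Gzma-led cells with Trac alone, in 94.7% with both and in 83.3% with Trdc alone, whereas Tcrg-C2 was found in 84.6%, 94.7% and 69.4% and Tcrg-C4 in 66.7%, 71.1% and 77.8%. Cd8b1, the beta chain of CD8, had the opposite order, with 35.9%, 10.5% and 8.33%, and was found in 47.1% of the 17 cells with neither. Among cells with Trac alone, both and Trdc alone, Cd8a was found in 97.4%, 100% and 69.4%, and Cd3g in 100% of each. In the cells with neither, Cd8a was found in 64.7% and Cd3g in 88.2%. Cd4 was at 0 of the 130 naïve Gzma-led cells, which allows a share of up to 2.31%.

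**Figure D4:**
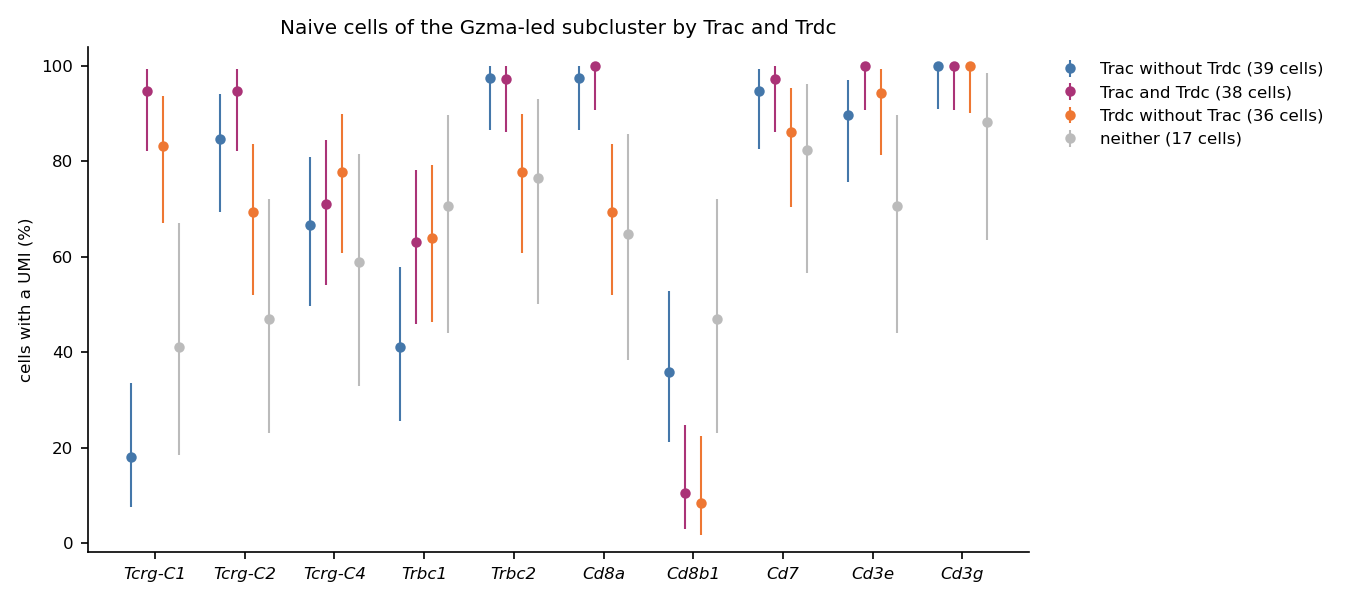
Percent of naïve Gzma-led cells with a UMI of each partner gene, for cells with Trac alone, with both Trac and Trdc, with Trdc alone and with neither. Tcrg-C1 ranges from 17.9% with Trac alone to 94.7% with both, and Cd8b1 from 8.33% with Trdc alone to 47.1% with neither.

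The 36 cells with Trdc alone were then compared with the 39 with Trac alone by level. Of the 7 genes that did not define these classes, 0 were 2-fold higher (3.46% of 1244 genes) or lower (3.70%). Cd3g was at 5253 and 3409 CPM, a ratio of 1.54 (1.33 to 1.79), and Trbc2 at 1473 and 2174 CPM, a ratio of 0.678 (0.535 to 0.854). The ratios of Tcrg-C2 (0.969), Cd8a (0.857), Cd7 (1.11), Cd3e (1.15) and Trbc1 (1.16) had intervals that held 1. Among the partner genes, Tcrg-C1 was at 1512 and 163 CPM (9.26, 5.47 to 16.7) and Cd8b1 at 115 and 439 CPM (0.263, 0.113 to 0.546). Of 8 TCR-proximal signalling genes past the minimum count, the adaptor Lat (0.290) and the receptor Cd6 (25.6 and 255 CPM) were lower and Trat1 (2.05) higher. Of 10 cytotoxic genes 0 passed 2-fold, and Gzmb was at 3741 and 6216 CPM (0.602).

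Detection of Cd8b1 among cells with Cd8a differed between the 2 subclusters with T cell genes. A cell without a Cd8b1 UMI may still express the gene, so these shares do not show which CD8 dimer was made. In the Gzma-led subcluster Cd8b1 was found in 29 of 112 naïve cells with Cd8a (25.9%, 18.1 to 35.0) and in 2 of 23 at 72 h (8.70%, 1.07 to 28.0). In the T cell-like subcluster it was found in 21 of 24 cells with Cd8a over the 3 libraries (87.5%, 67.6 to 97.3). The naïve library gave 6 of 7 of these and the 72 h library 8 of 10. Among the naïve Gzma-led cells Cd8b1 was found in 7 of 74 with Trdc (9.46%, 3.89 to 18.5) and in 22 of 56 without (39.3%). Cd7 accompanied Cd8a in 106 of 112 naïve Gzma-led cells (94.6%) and in 6 of 24 T cell-like cells (25.0%).

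Cd7 was also found outside the lymphocytes. In cluster 7, a dendritic cell (DC)-like cluster, Cd7 was at 181 CPM (98.8 to 303) in the naïve library, 250 (216 to 287) at 24 h and 99.9 (79.0 to 125) at 72 h. It was found in 72 of 259 cells of this cluster (27.8%), of which 68 had no UMI of Cd3e or Cd3g, and Cd3e itself was at 1.83 CPM. DC-like cells were deeper than B cell-like cells, with medians of up to 6801 UMIs. The share of B cell-like cells with Cd7 was 3.97% in naïve mice, 0% at 24 h and 12.7% at 72 h, at median depths of 1861, 1707 and 3272 UMIs. After thinning to 1000 UMIs, Cd7 was found in 17 of 122 DC-like cells at 24 h (13.9%) and in 0 of 36 B cell-like cells. At 72 h the counts were alike, at 7 of 134 (5.22%) and 4 of 78 (5.13%). In the naïve library they were 2 of 20 (10%) and, among B cell-like cells without Trdc, 6 of 262 (2.29%). The naïve B cell-like cells with Trdc had Cd7 in 2 of 2.

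The other genes of these lymphocytes were read from lists of related genes. Of 5 partner chain genes past the minimum count at 24 h, 4 were at least 2-fold below the naïve level in T/NK/ILC cells (Cd3d, Cd8b1, Tcrg-C1 and Tcrg-C4) and 0 above, with a list median of 0.415 beside 1.03 for all genes. Among all genes in this comparison 8.63% were lower and 6.62% higher. All 4 intraepithelial lymphocyte genes past the minimum were lower at 24 h, among them Itgae, the CD103 integrin chain (0.146, 0.0654 to 0.284), and Cd160 (0.308). Of 15 cytotoxic and NK receptor genes 5 were lower (Gzma, Gzmb, Ccl5, Klrd1 and Xcl1) and 4 higher (Klrk1, Klrb1c, Ncr1 and Eomes). Gzma, a granzyme, was at 19611 CPM in the naïve library and 2848 at 24 h, and Klrk1, the NKG2D receptor, at 65.9 and 329 CPM.

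At 72 h the counts against the naïve library were 3 of 6 partner genes lower, 3 of 4 intraepithelial genes lower, and 5 lower and 3 higher of 15 cytotoxic genes, beside 5.47% of all genes lower and 6.01% higher. Both type 2 genes past the minimum, Gata3 (2.35, 1.60 to 3.49) and Areg (4.76, 1.55 to 19.4), were higher, as were Il7r (3.23), Icos (2.82) and Pdcd1 (6.04). Inside the Gzma-led subcluster 0 of 4 intraepithelial genes and 1 of 11 cytotoxic genes, Xcl1 (0.388, 0.238 to 0.602), were past 2-fold at 72 h, where 10.2% of all genes were lower and 3.16% higher, so these shares are near the background. Gzma was at 1.15 times the naïve level there, and Ccl5 was at 42678 CPM in naïve and 43290 CPM in 72 h cells. Cd8b1 was the 1 of 5 partner genes below 2-fold in this subcluster, at 283 and 139 CPM (0.490, 0.236 to 0.920).

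In the T cell-like subcluster at 24 h, 5 of 7 cytotoxic genes past the minimum were at least 2-fold higher than in the naïve library (6.39% of all genes), among them Gzmb at 1334 against 564 CPM (2.36, 1.73 to 3.25) and Ccl5 at 4489 against 1980 CPM (2.27, 1.92 to 2.68), and Gzma was lower (4.19% of all genes). The other 3 were Fcer1g, Tyrobp and Il2rb, which include genes that myeloid cells share. In the naïve library these 3 were also at least 2-fold higher in the Gzma-led than in the T cell-like subcluster. Monocyte/Mφ markers in the T cell-like subcluster were at 546 CPM in the naïve library and 2971 at 24 h. The part of myeloid RNA in these ratios was not tested. Il17a, a type 17 cytokine, was at 358 CPM in the naïve and 43.4 CPM at 24 h (0.121, 0.0315 to 0.335), with 90.0 CPM at 72 h.

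The genes whose pattern was most like each of the 9 were found from the correlation of log2(CPM + 10) over 28 groups of 1 cluster in 1 library, across 8519 genes. Trac was most like Txk, a Tec-family kinase of T cells (r = 0.988), then Skap1 and Ikzf2, and Trbc1 was also most like Txk (0.982). Trbc2 was most like Cd3d (0.980). Trdc (0.951) and Tcrg-C2 (0.983) were both most like Tcrg-C1, with Dapk2 and Cd160 among their nearest 3. Cd3e and Cd3g were most like each other (0.985), Cd8a was most like Cd3e (0.951) and Cd7 like Lag3 (0.920), Klrd1 and Itgae. The groups share libraries and most of them hold few lymphocytes, so these values describe the contrast of lymphocytes with other cells.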

How the data were processed

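Single-cell RNA sequencing of CD45+ cells was deposited as 3 tables of UMI counts per gene and cell. Per the labels, the authors made 10x 3' libraries, aligned and counted with Cell Ranger 3.0.2 against GRCm38/mm10 and used Seurat, and the study's methods removed cells below 200 genes or above 10% mitochondrial UMIs. The deposited counts were whole numbers without normalization, and no further filter was applied. The gene annotation behind the counts is not given in the sources used here. Whether strand was used is not given either.

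The 9 genes, the gene lists and the markers were chosen with earlier results of these data known. Cells were clustered with Seurat 5.3.0 in R 4.3.3 (2000 variable genes, 30 principal components, 20 neighbours, resolution 0.8, random seed 0), and T/NK/ILC cells again with 20 components. The 27 member and TCR segment genes were left out of the variable genes. A cluster was named from at least 3 markers found in at least 10% of its cells at 2-fold above the rest. Libraries were not corrected against each other. Doublet scores came from Scrublet in scanpy 1.11.5, which called 16 of 4102 cells, below the share at which it can be taken to have worked, and all cells were kept.

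Levels are CPM, the UMIs of a gene over all UMIs of the cells grouped. Intervals at 95% were exact throughout: Poisson for levels, Clopper-Pearson for shares and conditional Poisson for ratios. The share that 0 cells allow was instead set at 3 cells of the total. Groups under 20 cells in a library were not compared, genes needed 20 UMIs over both sides of a ratio, and a fold against 0 used a floor of 3 UMIs over the group. Shares past 2-fold over all genes passing this minimum give the background. Thinning drew 1000 or 1500 UMIs per cell, and 514 of 4102 cells were too shallow for the first. Every gene of the lists and every one of the 9 genes could be named, with the 3 most correlated genes of each. With 1 library per time point no test was run. The comparison of alpha-beta-only with gamma-delta-only cells that had been planned needed 20 cells in both classes and could not be made, so cells with Trdc and no Trac were compared with cells with Trac and no Trdc, chosen after seeing the data. The second clustering and the check against B cell markers were also added after seeing the data. Coordinates, exons and coding bases were read from GRCm38 with GENCODE M21. Computation used numpy 2.4.6, scipy 1.17.1 and pandas 2.3.3, and figures matplotlib 3.10.9. The code of the ratio intervals was run on simulated independent Poisson counts, the model that the intervals assume. This run therefore says nothing about UMIs that gather in a few cells. At the UMI totals of the Gzma-led cells at 72 h and in naïve mice, 9.42% of simulated unchanged genes passed 2-fold. The alternatives were cell filters, doublet removal, clustering settings, thinning, a minimum of 2 UMIs, other chain definitions, a fold of 1.5, no minimum count and per-cell means.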

Additional observations from a re-analysis of the deposited data

Results flagged for a closer look

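The level of Trdc in CPM moved in opposite directions from the naïve library to 72 h in the 2 subclusters with T cell genes. This is the 1 contrast of this kind among the 9 genes. In the Gzma-led subcluster the ratio of 72 h over naïve was 0.745 (0.586 to 0.939), from 1470 to 1095 CPM, with Trdc in 74 of 130 and 18 of 27 cells. In the T cell-like subcluster the ratio was 2.79 (1.44 to 5.94), from 98.5 to 275 CPM, with Trdc in 3 of 38 and 7 of 60 cells. The share of cells with Trdc was higher at 72 h in both subclusters, so the opposite directions hold for the level and not for the share. The difference between the 2 ratios was not tested, since each time point is 1 library.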

How the results depend on the processing

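Of 1023 values recomputed under 21 alternatives, 956 lay within the interval of the main value and 0 reversed a called direction. The cell filters, doublet removal and clustering settings moved none of the chain shares or co-detection values past their intervals. The choice of cells and the definition of a chain did. Doublet removal could show little, since Scrublet called 2 of the 393 T/NK/ILC cells and 0 of the 162 Gzma-led cells. Per-cell means were applied to levels and ratios, not to chain shares or co-detection. In this list a value is the percent of T/NK/ILC cells unless said otherwise. Counting Tcrg-C1 and Tcrg-C4 as well gave, for both chain types, 82.4 (naïve), 36.6 (24 h) and 52.6 (72 h), and 12.8, 57.7 and 45.2 for alpha-beta chains only. Trac against Trdc alone gave 20.3, 1.41 and 8.89 for both, 49.3 at 24 h and 43.0 at 72 h for Trac only, and 21.9 (naïve) and 14.1 (72 h) for Trdc only. Taking cells with any CD3 gene in any cluster gave 20.2, 39.1 and 39.0 for alpha-beta only and 23.6 for both at 72 h. Requiring 2 UMIs gave 36.9 for alpha-beta only and 52.9 for both in the naïve library and 22.2 for both at 72 h. Thinning to 1000 UMIs gave 54.5 and 20 for both in the naïve and 72 h libraries and 7.95 for gamma-delta only in the naïve library. By construction thinning and the 2 UMI minimum lower detection.

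The percent of cells with Trac among those with Trdc was, in the naïve library, 31.1 after thinning to 1000 UMIs, 35.4 after thinning to 1500 and 27.0 with 2 UMIs, and 20 and 16 at 72 h for the first and last. Among cells without Trdc it was 49.0 (1000 UMIs) and 35.4 (2 UMIs) in the naïve library, 35.3 and 32.4 at 24 h, and 34.8, 42.5 (1500 UMIs) and 32.7 at 72 h. Tcrg-C2 among cells with Trac, 71.7 in the naïve and 27.1 at 72 h, became 43.8 (1000 UMIs) and 53.3 (2 UMIs) in the naïve library and 13.6 (1000 UMIs) at 72 h. The share of Gzma-led cells with Trac and Trdc became 19.0 (1000 UMIs), 21.1 (1500 UMIs) and 15.4 (2 UMIs) in the naïve library and 11.1 at 72 h under 1000 UMIs and 2 UMIs. With a fold of 1.5 the genes higher at 72 h than at 24 h numbered 4, not 2. The Cd7 ratio of Trdc-only over Trac-only cells was 1.34, not 1.11, after thinning to 1500 UMIs, and the cause was not tested. No paired analysis was possible because there is 1 library per time point, and for the same reason no replicate could be left out. Depth limits every statement on a missing chain.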

Other observations

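The T cell-like subcluster at 72 h divided by Trdc. Its 7 cells with Trdc had Tcrg-C1 in 5 (71.4%), Tcrg-C4 in 4 (57.1%), Tcrg-C2 in 3 (42.9%) and Trac in 3 (42.9%), and its 53 cells without Trdc had Trac in 48 (90.6%), Tcrg-C1 in 9 and Tcrg-C4 in 2 (3.77%). Cd163l1 was found in 3 of the 7 (581 CPM) and in 1 of the 53 (5.94 CPM), and Blk, a Src-family kinase, in 3 of the 7 (290 CPM) and 3 of the 53 (17.8 CPM). Il17a was found in 0 of the 7 and 4 of the 53 cells. Cd4 was found in 0 and 14 cells. With 7 cells these values describe single cells and no test was made.

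Gamma constant transcripts were found in ILC-like cells that lacked Trdc. Tcrg-C4 was found in 10 of 21 cells (47.6%) at 309 CPM (198 to 459) and Tcrg-C1 in 7 (33.3%), while Tcrg-C2, Trdc, Cd3d, Cd3e and Cd247 were at 0 of 21 and Cd3g was found in 3. NK cell-like cells held Tcrg-C4 in 25 of 79 (31.6%) and Tcrg-C1 in 19 (24.1%).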
